A study of Mus musculus with 2 samples.

Results

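Cyclins, cyclin-dependent kinases (CDKs), their inhibitors, DNA replication factors, mitotic genes and the E2f, Rb1 and Mycn regulators were followed as a list of 40 genes. They were chosen by name, with earlier results of these data known. All 40 were found among the 21755 protein-coding genes on chromosomes 1 to 19 and X of the mouse GENCODE vM21 annotation (build mm10). They comprised 3 D-type cyclins, 6 CDK inhibitors, 6 cyclins of the E, A and B types, 4 CDKs, 9 genes of the replication machinery, 7 mitosis and chromosome genes, and a group of 5 made of E2f1, E2f2, E2f3, Rb1 and Mycn. The D-type cyclins and CDK inhibitors, 9 genes together, were compared with the 9 genes of the replication machinery.

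The assay was DNase-seq, which sequences the ends left where the nuclease DNase I has cut DNA that nucleosomes do not protect. The tissue was midbrain dissected at embryonic day 11.5 from healthy B6NCrl mice. The series has 1 group of 2 biological replicates, with male and female embryos pooled in each and no genetic change or treatment given in the labels. Both replicates carry the same donor record, and the labels do not say that they came from separate litters, so the spread between them may be technical. There was no other tissue, age or input library to compare with, so the comparisons below are between genes within this tissue.

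Cells enter the cycle when D-type cyclins with CDK4 or CDK6 begin to phosphorylate the retinoblastoma protein Rb1, which frees E2F factors to switch on genes for DNA replication. CDK inhibitors of the Cip/Kip and Ink4 families hold these kinases back, and in the embryonic brain this balance sets when neural progenitors stop dividing and become neurons. E2F sites are known from the promoters of S-phase genes, whereas genes used in mitosis often carry a CHR element (cell cycle genes homology region) and CCAAT boxes.

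Peaks and hotspots (wider regions of raised cutting) were deposited for each replicate separately. Replicate 1 had 305818 peaks and 267486 hotspots, and replicate 2 had 454408 and 375482. The signal of a peak is the authors' own value with no stated scale, with medians of 18 and 8 in replicates 1 and 2, so it is given per replicate or as a percentile within a replicate. Read depth is unknown. Merging peaks of both replicates that overlapped by at least 1 bp gave 89717 regions with a peak of each, called shared sites here. As a check of the tissue label, peaks of both replicates lay at a transcription start site (TSS) of 6 of 6 neural progenitor, 5 of 5 neuron and 4 of 5 midbrain marker genes, and Lmx1b was the exception. The same was true of 0 of 4 erythroid, 0 of 3 microglial, 1 of 4 endothelial (Kdr) and 2 of 4 mesenchymal (Prrx1 and Twist1) markers. The tissue was measured in bulk, so few cells with an open site and a site that is weakly open in all cells cannot be told apart.

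Promoter sequences are printed first for 6 members in which the E2F and CHR letters described further on were found, because these letters were spread differently over the replication genes and the mitotic genes. They are RefSeq promoter windows (GRCm38.p6), each read in the direction of transcription from 200 bases upstream of the RefSeq TSS to the base before it, and shortened for Mycn and Cdk1 where an annotated exon begins. Capitals mark matches to the E2F words TTTCGCGC, TTTGGCGC and TTTCCCGC and the CHR words TTTGAA and TTTAAA on either strand, and runs of capitals longer than a word are overlapping matches. Mcm5 (chr8:75109309-75109508, plus strand) and Mcm6 (chr1:128359706-128359905, minus strand) encode subunits of the replicative helicase. Mycn (chr12:12941915-12942036, minus strand) encodes a growth-promoting transcription factor, and Cdk1 (chr10:69352939-69353112, minus strand) the kinase that drives entry into mitosis. Plk1 (chr7:122159235-122159434, plus strand) encodes a mitotic kinase and Mki67 (chr7:135716380-135716579, minus strand) the proliferation marker Ki-67.
Mcm5: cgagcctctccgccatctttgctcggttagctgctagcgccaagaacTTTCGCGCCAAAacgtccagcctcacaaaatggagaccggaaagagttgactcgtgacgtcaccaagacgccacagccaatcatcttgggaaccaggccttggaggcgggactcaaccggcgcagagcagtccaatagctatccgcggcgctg
Mcm6: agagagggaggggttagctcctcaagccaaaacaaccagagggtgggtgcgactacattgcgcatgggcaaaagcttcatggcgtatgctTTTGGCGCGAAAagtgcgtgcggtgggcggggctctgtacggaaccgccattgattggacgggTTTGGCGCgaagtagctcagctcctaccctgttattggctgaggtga
Mycn: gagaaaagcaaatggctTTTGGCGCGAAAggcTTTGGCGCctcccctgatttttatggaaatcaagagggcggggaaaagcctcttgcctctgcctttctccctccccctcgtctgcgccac
Cdk1: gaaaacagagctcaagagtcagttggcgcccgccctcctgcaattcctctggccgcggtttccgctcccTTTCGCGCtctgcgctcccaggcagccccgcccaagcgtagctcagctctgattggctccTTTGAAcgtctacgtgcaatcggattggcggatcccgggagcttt
Plk1: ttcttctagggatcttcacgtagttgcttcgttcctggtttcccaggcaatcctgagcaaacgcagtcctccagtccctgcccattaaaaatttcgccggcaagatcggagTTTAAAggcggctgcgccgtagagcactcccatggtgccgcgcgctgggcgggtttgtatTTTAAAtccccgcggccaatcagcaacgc
Mki67: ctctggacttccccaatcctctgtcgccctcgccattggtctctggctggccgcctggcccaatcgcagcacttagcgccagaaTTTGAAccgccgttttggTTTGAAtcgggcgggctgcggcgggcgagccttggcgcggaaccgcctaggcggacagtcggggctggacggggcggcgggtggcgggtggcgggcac

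The next sequences are distal shared sites, defined as shared sites whose midpoint is over 2.5 kb away from all protein-coding TSSs and that belong to the closest one, at up to 100 kb. For each of the 6 genes below the distal shared site outside exons with the highest signal percentile is shown on the plus strand of mm10, because the results on these genes turn on them. The sites are chr7:144943356-144943565 for Ccnd1, chr6:127155016-127155165 for Ccnd2, chr17:47511236-47511405 for Ccnd3, chr6:134928456-134928725 for Cdkn1b, chr7:38084976-38085125 for Ccne1 and chr11:69041696-69041945 for Aurkb. In the first 5, capitals mark SOX words (either ACAATG or ACAAAG), proneural E-box words (either CAGCTG or CAGATG) and the GC box (GGGCGG) on either strand. In the Aurkb site, capitals mark the 72 bases of the transfer RNA gene n-TWcca7 instead.
Ccnd1: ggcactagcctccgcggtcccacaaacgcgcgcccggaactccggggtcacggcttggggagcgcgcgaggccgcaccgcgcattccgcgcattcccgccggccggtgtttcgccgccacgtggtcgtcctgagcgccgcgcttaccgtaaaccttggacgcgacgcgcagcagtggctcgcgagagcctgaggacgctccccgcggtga
Ccnd2: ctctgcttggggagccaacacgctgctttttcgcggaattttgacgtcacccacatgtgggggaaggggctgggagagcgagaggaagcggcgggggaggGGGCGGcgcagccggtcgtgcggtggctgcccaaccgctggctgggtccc
Ccnd3: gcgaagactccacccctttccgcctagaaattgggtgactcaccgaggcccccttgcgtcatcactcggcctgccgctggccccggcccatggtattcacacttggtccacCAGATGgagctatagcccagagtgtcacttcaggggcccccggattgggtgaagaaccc
Cdkn1b: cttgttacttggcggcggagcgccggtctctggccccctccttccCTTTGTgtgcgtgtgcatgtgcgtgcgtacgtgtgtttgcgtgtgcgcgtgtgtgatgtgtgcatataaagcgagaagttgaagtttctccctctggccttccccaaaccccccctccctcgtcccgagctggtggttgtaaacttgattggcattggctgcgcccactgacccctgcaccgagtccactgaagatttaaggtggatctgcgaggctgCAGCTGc
Ccne1: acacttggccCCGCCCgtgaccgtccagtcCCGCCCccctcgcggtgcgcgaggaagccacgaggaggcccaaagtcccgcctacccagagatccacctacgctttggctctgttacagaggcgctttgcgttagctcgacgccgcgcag
Aurkb: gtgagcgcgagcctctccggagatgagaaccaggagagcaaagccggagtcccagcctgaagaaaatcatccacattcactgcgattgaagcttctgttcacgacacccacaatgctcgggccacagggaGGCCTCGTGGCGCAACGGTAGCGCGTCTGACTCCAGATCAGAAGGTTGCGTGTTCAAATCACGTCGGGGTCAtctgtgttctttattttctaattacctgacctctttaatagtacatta

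The first question was whether the promoters of the cell cycle genes were open. A gene's TSS was called accessible if each replicate had a peak no more than 500 bp from any of the gene's TSSs. By this rule all 40 genes had an accessible TSS, against 65.5% of all protein-coding genes. The 75 other cell cycle genes examined beside them, which hold the origin recognition complex, GINS, the DNA polymerases, RPA, RFC, centromere and checkpoint genes, also all had one. Promoters rich in CpG are open in most tissues. Among protein-coding genes whose CpG ratio was at or above the members' median of 0.772, the share was 98.3%. Members with a ratio that high thus lie near CpG-rich genes in general. Members below the median, such as Cdkn1a at 0.127 and Ccnd3 at 0.473, were not set against genes of similar ratio. A protein-coding gene on the opposite strand started within 1 kb of 3 of the 40, against 9.08% of all genes and 13.2% of those with an accessible TSS. These were Mcm4 with Prkdc, Mcm7 with Ap4m1 and Aurka with Cstf1.

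Promoters of the 40 genes differed in how strong their peaks were. Each gene's strongest TSS peak was ranked among all protein-coding genes with a TSS peak in that replicate. The mean percentile of both replicates exceeded 50 in 30 of the 40 genes, against 35.9% of all protein-coding genes and 54.8% of those with an accessible TSS. Of the 75 other cell cycle genes 66 were above 50. All 9 genes of the replication machinery, but 4 of the 9 D-type cyclins and CDK inhibitors, were above 50. Medians of the members' percentiles were 71.3 in replicate 1 and 67.0 in replicate 2.

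**Figure D1:**
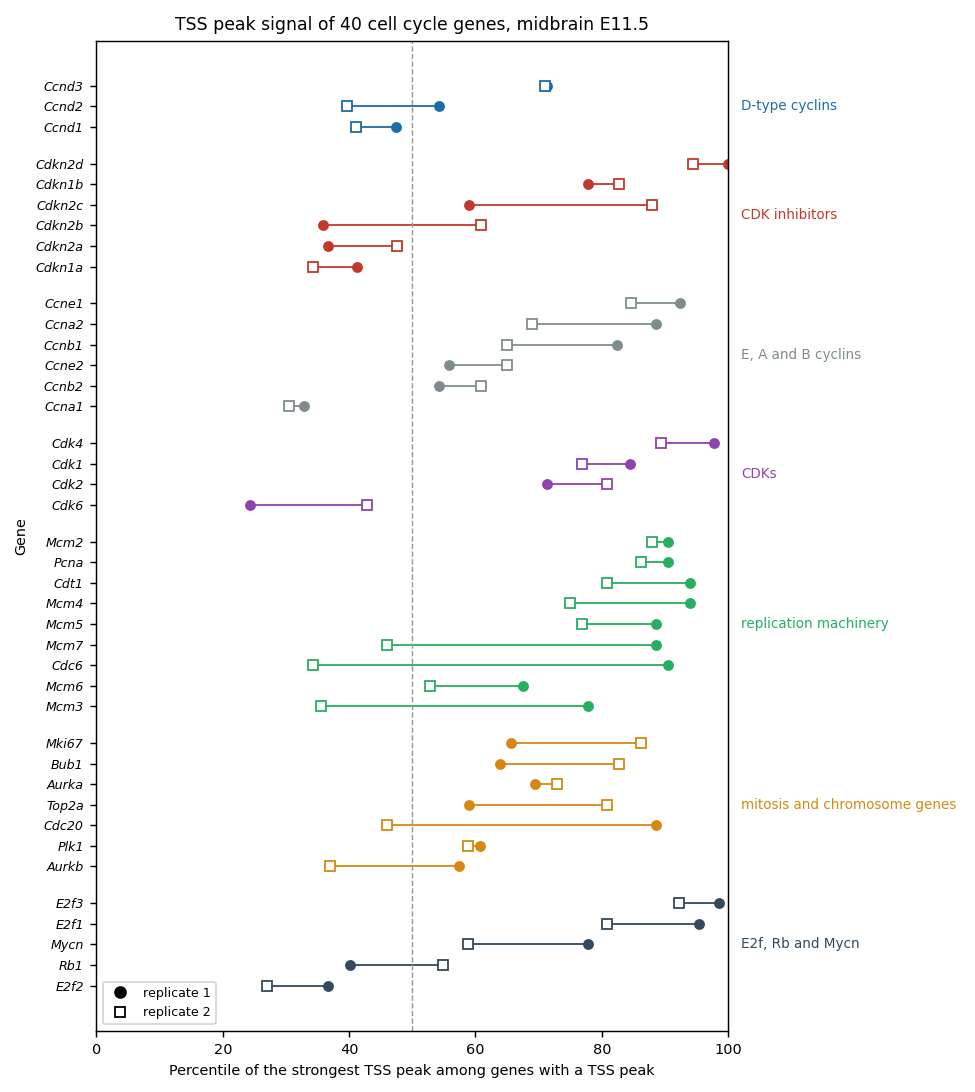
Percentile (x axis, 0 to 100) of the strongest TSS peak of each of the 40 genes (y axis) among protein-coding genes with a TSS peak, with filled circles for replicate 1, open squares for replicate 2, colours for the 7 groups and a dashed line at 50. The 9 replication genes lie at 67.6 or higher in replicate 1, while in replicate 2 they spread from 34.3 to 87.9 and overlap the other groups.

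The D-type cyclins are the growth-factor-responsive partners of CDK4 and CDK6. Ccnd1, encoding cyclin D1, had a TSS signal of 110 in replicate 1 and 63 in replicate 2, a mean percentile of 44.3 ± 4.42 (SD, n = 2). Ccnd2, encoding cyclin D2, had signals of 115 and 62 and a mean percentile of 46.9 ± 10.3 (SD, n = 2). Ccnd3, encoding cyclin D3, was the strongest of the 3, with signals of 125 and 79 and a percentile of 71.1 ± 0.244 (SD, n = 2). Both replicates thus placed Ccnd3 above Ccnd1 and Ccnd2, whose order to each other reversed between replicates. The strongest Ccnd3 peak did not lie at the TSS that starts most of its annotated transcripts. At that first TSS group (chr17:47505051-47505149) the signals were 50 and 31, whereas they were 125 and 79 at the TSS at position 47593470 and 89 and 58 at position 47596068.

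Open chromatin at the D-type cyclin promoters reached beyond the TSS. Shared sites between 0.5 and 2.5 kb from the TSSs numbered 5 at Ccnd1, 6 at Ccnd2 and 3 at Ccnd3, while no gene of the replication machinery had more than 1. The median over all genes with an accessible TSS was 0. Such counts were not particular to the cyclins, since Cdkn1b had 5 and Cdk6 and Mycn had 3 each. The hotspot over the TSS spanned 3385 bp in replicate 1 and 7003 bp in replicate 2 at Ccnd1. At Ccnd2 it spanned 961 and 7806 bp, so its width differed widely between replicates. The widest at a TSS of Ccnd3 spanned 1142 and 2113 bp. Medians over all genes with an accessible TSS were 1010 and 1546 bp. Wide hotspots also lay at E2f3, with 3559 and 3957 bp, and at Mycn, with 2100 and 5254 bp. A hotspot wider than 1000 bp in both replicates was found at 18 of the 40 genes, against 32.7% of all genes and 49.9% of those with an accessible TSS, so the members' share was near that of other genes with an open promoter. It was found at 39 of the 75 other cell cycle genes. For the replication machinery the median width was 768 bp in replicate 1 and 1464 bp in replicate 2.

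CDK inhibitors block the kinases that the cyclins activate, and their promoters ranged widely in strength, with mean percentiles from 37.7 to 97.2. Cdkn2d, encoding p19Ink4d, which helps to keep neurons out of the cycle, had the highest TSS percentile of the 40 genes, with signals of 145 and 93 and a percentile of 97.2 ± 3.94 (SD, n = 2). Cdkn1b, encoding p27Kip1, had signals of 128 and 85 and Cdkn2c, encoding p18Ink4c, 118 and 88. Cdkn1a, encoding the p53 target p21, had signals of 104 and 58 and a percentile of 37.7 ± 4.92 (SD, n = 2), the lowest mean of the 6. Cdkn2a had signals of 99 and 67 and Cdkn2b, encoding p15Ink4b, 98 and 74. Cdkn2d and Cdkn1b stood above Cdkn1a and Cdkn2a in both replicates, and the percentile of Cdkn2b differed most between replicates after Cdkn2c, at 35.8 and 60.8 against 59.0 and 87.9.

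Several inhibitors have more than 1 start site. Cdkn2a encodes p16Ink4a and, from an upstream first exon, p19Arf. The upstream TSS (chromosome 4, position 89294653) had signals of 99 and 67 and the downstream TSS (position 89282192) of 60 and 42, so both were open, the upstream one more strongly in each replicate. At Cdkn1a the TSS group near position 29093769 of chromosome 17 carried the signals of 104 and 58. The TSS at position 29090979 had no peak in either replicate, and the one at position 29097900 had none in replicate 1 and a peak of signal 8 in replicate 2. At Cdkn2c the TSS at position 109667189 of chromosome 4 had signals of 118 and 88 and the one at position 109665372 had 53 and 53.

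The remaining cyclins act in S phase and mitosis. Ccne1, encoding cyclin E1, which activates CDK2 at the start of S phase, had the highest TSS percentile of these 6 genes, with signals of 135 and 86 (88.5 ± 5.46, SD, n = 2). Ccna1, encoding the cyclin A used mainly in male germ cells, had the lowest mean percentile of all 40, with signals of 94 and 55 (31.7 ± 1.67, SD, n = 2), just under E2f2, while Cdk6 was lower in replicate 1 and E2f2 in replicate 2. Ccna2, the cyclin A of dividing somatic cells, had signals of 133 and 78. Ccna2 lay well above Ccna1 in both replicates, at percentiles of 88.5 and 69.0 against 32.9 and 30.5. Ccnb1, Ccnb2 and Ccne2 lay between, with mean percentiles from 57.5 to 73.6.

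Among the CDKs, Cdk4, the partner of D-type cyclins, had the strongest promoter, with signals of 139 and 89 and a percentile of 93.6 ± 5.83 (SD, n = 2). Cdk6, which binds the same cyclins, had the weakest, with signals of 78 and 64 and a percentile of 33.6 ± 13.1 (SD, n = 2). The 2 kinases did not overlap, since the higher percentile of Cdk6 was 42.8 and the lower of Cdk4 was 89.4. Cdk1 had signals of 131 and 82, and Cdk2, the S-phase kinase, 125 and 84.

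The replication machinery covers the MCM2 to MCM7 helicase, the loading factors Cdc6 and Cdt1, and the sliding clamp Pcna. Mcm2 had the highest mean TSS percentile of the 9, with signals of 134 and 88 (89.2 ± 1.89, SD, n = 2), followed by Pcna with 134 and 87. Mcm3 had the lowest mean, with signals of 128 and 59 (56.7 ± 29.9, SD, n = 2), and Cdc6 had signals of 134 and 58 (62.4 ± 39.8, SD, n = 2). In replicate 1 the 9 genes were close together, with signals from 123 to 136, and in replicate 2 they were not, with signals from 58 to 88. Mcm3, Mcm7 and Cdc6 were the genes that fell below the 50th percentile in replicate 2.

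Set against the replication machinery, the 9 D-type cyclins and CDK inhibitors as 1 set had a lower median of promoter peak strength in both replicates. Their median percentile was 54.2 against 90.5 in replicate 1 and 60.8 against 74.9 in replicate 2, a difference of -36.3 and -14.1 points and a mean of -25.2 ± 15.7 (SD, n = 2). On the mean percentile per gene the medians were 48.3 and 82.7, a difference of -34.4, and over all genes with an accessible TSS the median was 54.1. The groups overlapped, from 37.7 to 97.2 in the former and from 56.7 to 89.2 in the latter. The size of the difference varied with the replicate. In replicate 1 the medians of the 6 CDK inhibitors (50.1) and 3 D-type cyclins (54.2) lay well below the 90.5 of the replication genes. In replicate 2 the inhibitors' median of 71.8 lay close to the 74.9 of the replication genes, while that of the cyclins was 41.1. On the mean percentile the difference was -21.8 for the inhibitors alone and -35.8 for the cyclins alone. Genes are not replicates of a condition, so no p-value is attached to it. The median CpG ratio also differed, at 0.679 for the D-type cyclins and inhibitors and 0.785 for the replication genes. The ratio is 1 value per gene, so in a gene with several TSSs it may not describe the TSS with the strongest peak. Ccnd3, for example, has 6 TSSs and Cdkn1a has 4. The part of the CpG ratio in the difference was not tested.

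Promoters of the 7 mitosis and chromosome genes had a median of the mean percentiles of 69.9. This lay between the 54.1 of all genes with an accessible TSS and the 82.7 of the replication machinery, and 6 of the 7 exceeded 50. Mki67 had the highest mean percentile of these 7, with signals of 122 and 87 (76.0 ± 14.6, SD, n = 2), and Aurkb, encoding the Aurora kinase of the chromosomal passenger complex, the lowest, with 117 and 60 (47.1 ± 14.5, SD, n = 2). Aurka, the spindle-pole Aurora kinase, had 124 and 80, and Cdc20, the activator of the anaphase-promoting complex, 133 and 66. Top2a, Plk1 and Bub1 had signals from 118 to 121 in replicate 1 and from 73 to 85 in replicate 2. In replicate 1, 6 of the 7 lay within 57.3 and 69.4, and Cdc20 stood apart at 88.5.

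The regulators E2f1 to E2f3, Rb1 and Mycn had mean percentiles from 31.8 to 95.4. E2f3 had signals of 140 and 91 (95.4 ± 4.39, SD, n = 2), the second highest percentile of the 40. E2f2 had 99 and 52 (31.8 ± 6.74, SD, n = 2), the second lowest mean, and E2f1 had 137 and 84. Mycn had 128 and 73, and Rb1, which restrains the E2F factors, had 103 and 71. E2f3 has 2 TSSs, of which the upstream one (chromosome 13, position 29986063) carried 140 and 91 and the downstream one (position 29984391) 94 and 65. At Mycn the TSS at position 12941914 of chromosome 12 carried 128 and 73 and the one at position 12940616 carried 85 and 56.

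The promoter sequences were then searched for the letters of known cell cycle elements. RefSeq windows of 300 bases, from 250 before to 50 after the TSS, were on hand for 33 of the 40 genes (40 windows), and Aurkb, Ccna2, Ccnd1, Ccnd2, Ccne2, Mcm4 and Rb1 had none. An E2F word was present in 12 of the 40 windows (30.0%), against 2.46% of all 20061 protein-coding windows and 3.49% of the 13026 with a peak of both replicates within 500 bp. It was found in 6 of 9 windows of the replication machinery, 3 of 6 of the E2f and Mycn genes, 2 of 4 of the CDKs, 1 of 9 of the CDK inhibitors and 0 of 6 of the mitosis genes. Neither Ccnd3 window and none of the 4 windows of the E, A and B cyclins held one. The single inhibitor window was that of the upstream, Arf-side TSS of Cdkn2a, and its downstream p16 window had none.

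CHR words showed another distribution. They were present in 16 of the 40 windows, against 24.0% of all windows and 17.7% of those with a peak. In the mitosis genes 5 of 6 windows held one, Bub1 being the exception, as did 3 of 4 windows of the E, A and B cyclins and 2 of 9 of the replication machinery, those of Mcm2 and Mcm5. They were also in 3 of 6 windows of the E2f and Mycn genes, 2 of 9 of the CDK inhibitors, 1 of 4 of the CDKs and 0 of 2 of Ccnd3. The windows of Cdk1, Mcm5 and Mycn and the upstream one of E2f3 held both kinds of word. The sequences of Plk1 and Mki67 printed above hold 2 CHR words each and no E2F word, those of Mcm6 and Mycn hold 3 E2F words each and no CHR word, and that of Cdk1 holds 1 of each kind. The full windows hold further CHR words outside the printed bases. These begin at -14 from the TSS in Mycn, -15 in Cdk1, -221 in Mcm5 and 30 in Plk1. In Mcm5, Mcm6 and Mycn an E2F word on 1 strand overlaps another on the opposite strand. CCAAT was found in 26 of 40 windows (65.0% against 37.9% of all windows), with 6 of 6 in the mitosis genes, and the GC box GGGCGG in 33 of 40 (82.5% against 48.0% of all windows and 67.4% of those with a peak). A match of letters is a description and not a bound site.

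**Figure D2:**
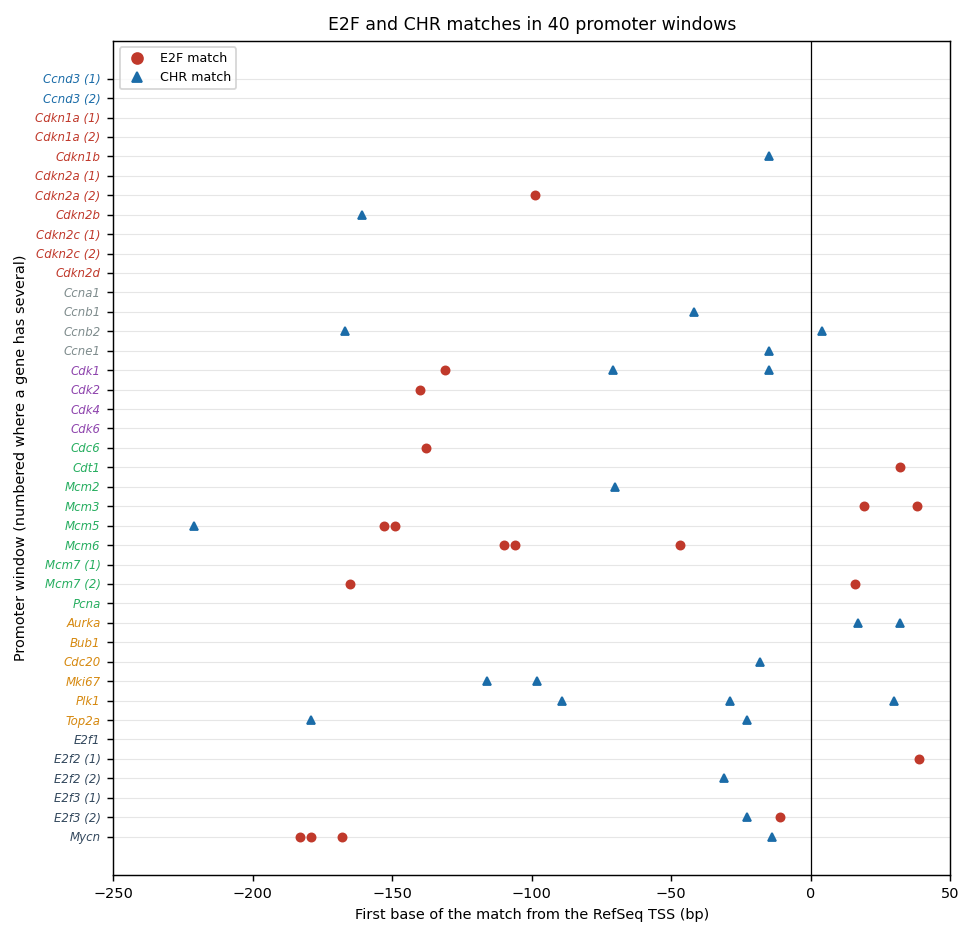
Position of E2F (red circles) and CHR (blue triangles) matches in bp from the RefSeq TSS (x axis, upstream negative) in the 40 promoter windows (y axis, gene names coloured by group, with a number where a gene has several windows). E2F matches gather in the replication genes and near the bottom in the E2f and Mycn windows, and of the 6 mitosis windows 5 hold CHR matches and 0 hold E2F matches.

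The matches were compared with the peaks themselves, which are 150 bp wide. The 12 windows held 19 E2F positions, 14 upstream of the TSS and 5 downstream. Of the 19, 5 lay wholly under a peak of replicate 1, 11 under one of replicate 2 and 3 under peaks of both, those 3 being in Cdk1, Mcm6 and Mycn. The 16 windows with CHR words held 23 positions, of which 8, 10 and 5 lay under a peak of replicate 1, replicate 2 and both. Most positions were thus not under a peak in both replicates. The windows were cut close to the TSS, so the 500 bp rule says nothing further about these positions. The share of such words under peaks was not computed over all promoter windows, so the members cannot be compared with other genes here.

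The second question was how many distal sites surround each gene. Of the 44711 distal shared sites of protein-coding genes, 95 were assigned to the 40 genes, and 22 of the 40 had at least 1, against 56.5% of all genes and 65.2% of those with an accessible TSS. At least 5 were found at 10 of the 40, against 14.2% of all genes and 18.3% of those with an accessible TSS, and at 11 of the 75 other cell cycle genes. These 10 were Mycn with 9, Ccnd2, Ccne1 and Mki67 with 8 each, Cdkn1b and Aurkb with 7, Ccnd1, Cdkn1a and Cdk1 with 6 and Ccna1 with 5. By group, 4 of the 9 D-type cyclins and CDK inhibitors reached 5 sites and 0 of the 9 replication genes did. The 3 other cell cycle genes with the most were Cdkn1c, encoding the inhibitor p57Kip2, with 10, Gins2 with 8, and Pttg1, tied with Rpa1 and Rrm2, with 7.

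D-type cyclins and CDK inhibitors had a mean of 3.67 distal shared sites per gene and a median of 4, against 0.667 and 0 in the replication machinery. The mean and median were 2.06 and 1 over all genes, and 2.54 and 1 over those with an accessible TSS. Each replicate alone gave the same order, with 7.33 against 1.44 sites per gene in replicate 1 and 21.2 against 4.22 in replicate 2, a mean difference of 11.4 ± 7.86 (SD, n = 2). The length of sequence nearest to a gene's TSSs and within the distance limits, called its territory here, differed as well, with medians of 83.2 kb against 18.9 kb and 40.9 kb over all genes. Per 100 kb of territory the shared sites numbered 5.14 against 2.78, with 3.18 over all genes and 3.54 over those with an accessible TSS. The parallel lists of 15 other G1 and E2F regulators and 36 other replication genes had 3.15 and 3.12 per 100 kb. In single replicates they had 10.6 and 7.10 in replicate 1, and 14.8 and 17.5 in replicate 2, an order that reversed. Per gene they had means of 2.67 and 1.5 shared sites, in median territories of 66.9 and 35.4 kb. Their median TSS percentiles were 73.3 and 74.6. These lists were thus close in promoter strength and in shared sites per 100 kb, but not in sites per gene. Between the D-type cyclins with CDK inhibitors and the replication machinery, the difference of 2.36 per 100 kb was smaller in proportion than that per gene. It shrank to 1.11 when replicates had to overlap by at least 75 bp and to 0.872 when distal meant over 5 kb, and rose to 4.04 with the nearest TSS within 50 kb. Sites per gene differed by 5.33 for the D-type cyclins alone and by 1.83 for the inhibitors alone.

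**Figure D3:**
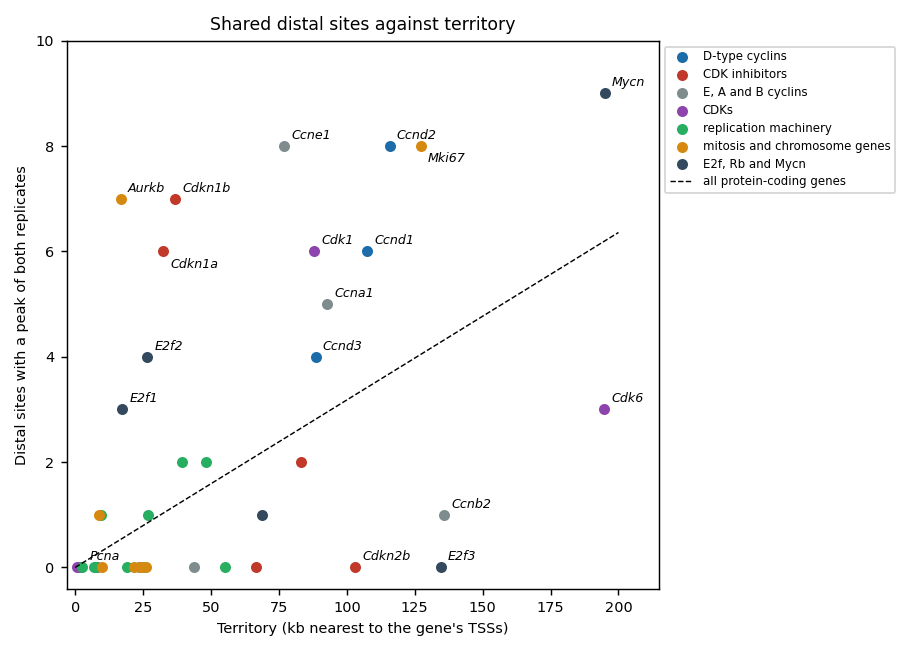
Number of distal shared sites (y axis) against territory in kb (x axis) for the 40 genes, coloured by group, with a dashed line at the density of all protein-coding genes, 3.18 per 100 kb. Mycn, Ccne1, Aurkb, Cdkn1b and Cdkn1a lie well above the line, and Cdk6, Ccnb2, Cdkn2b and E2f3 lie below it despite territories over 100 kb.

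Within these groups the genes were far from uniform. Ccnd1, Ccnd2 and Ccnd3 had 6, 8 and 4 distal shared sites in territories of 107, 116 and 88.5 kb. Cdkn1b had 7 in 36.8 kb and Cdkn1a 6 in 32.3 kb, while Cdkn2a had 2 in 83.2 kb and Cdkn2b and Cdkn2c had 0 in 103 and 66.7 kb. Cdkn2d, in a short territory, had none, so that the inhibitor with the strongest promoter had no distal site of either replicate. Of the replication genes, Mcm3 and Mcm6 had 2, Mcm2 and Cdc6 had 1, and Mcm4, Mcm5, Mcm7, Pcna and Cdt1 had 0. Pcna had a territory of 2.67 kb and no distal site of either replicate, while Mcm5 had none that was shared in 55.1 kb.

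The distal sites of Ccnd1 included 2 strong ones upstream. The site 3591 bp upstream, printed above, had signals of 99 and 68, and a second, at chr7:145030936-145031125 and 91161 bp upstream, had 114 and 57. Their mean percentiles among all distal shared sites were 96.5 and 96.4, and the other 4 Ccnd1 sites lay between 42.0 and 57.8. At Ccnd2 an exonic site 3107 bp downstream of the TSS had signals of 101 and 57, and the printed site 4030 bp upstream had 76 and 70. The remaining 6 sites of Ccnd2 lay between percentiles of 14.4 and 76.9, and 5 of its 8 sites fell within 9330179D12Rik, an annotated noncoding gene. All 4 distal sites of Ccnd3 lay in its own introns, led by the printed site with signals of 111 and 71, 6171 bp downstream of the first TSS.

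At Cdkn1b the strongest distal site, printed above, had signals of 121 and 78 and a mean percentile of 99.2. It lay 8077 bp downstream of the TSS and within 500 bp of the start of the long noncoding RNA gene Lockd. A neighbouring site at chr6:134927256-134927485 had signals of 87 and 72. A site of Cdkn1a, at chr17:29079036-29079205, with signals of 32 and 23, likewise lay within 500 bp of the start of a noncoding gene, Trp53cor1, which encodes lincRNA-p21. The 6 Cdkn1a sites had mean percentiles from 38.5 to 57.8, within the range of 24.4 to 99.2 of the 7 Cdkn1b sites, and lay 8689 to 12669 bp upstream. The 15 distal shared sites of the CDK inhibitors all lay outside protein-coding genes.

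Ccne1 had the strongest distal shared site of the 40 genes. It lay 22484 bp downstream of the TSS, had signals of 132 and 91 and a mean percentile of 99.8, so that it lay below the Ccne1 promoter, with 135 and 86, in replicate 1 and above it in replicate 2. Its printed sequence holds 2 GC boxes on the strand opposite to that shown, no SOX or E-box letters, and is 67.3% G or C. Cdk1 had 6 sites, the strongest 31473 bp downstream with 90 and 42, and Ccna1 had 5, of which 4 fell within the noncoding gene 4931419H13Rik. Cdk6 had 3 sites in a territory of 195 kb, and Cdk2 and Cdk4 had 0 in 1.87 and 0.830 kb.

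The distal sites of Aurkb lay over other genes. Of its 7 distal shared sites, 6 overlapped RefSeq transfer RNA genes in a cluster upstream of Aurkb, and the other lay in an exon of Ctc1. The tRNA genes were n-TIaat5, n-TSaga4, n-TTagt8, n-TPcgg3, n-TDgtc9, n-TGtcc6 and n-TWcca7, at positions 69037003 to 69041897 of chromosome 11. Their sites had signals from 73 to 112 in replicate 1 and from 61 to 84 in replicate 2, and mean percentiles from 88.5 to 98.8. Among all 44711 distal shared sites 190 (0.425%) overlapped a tRNA gene, and among the 95 of the members these were the 6 of Aurkb. Without them the mitosis and chromosome genes had 10 sites in place of 16, or 4.26 in place of 6.82 per 100 kb, and without Mki67 as well 2 sites, or 1.86 per 100 kb. A nearest-TSS rule for protein-coding genes therefore gives Aurkb sites that lie on another class of gene.

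Mki67 and Mycn had sites far from their promoters. The 8 sites of Mki67 all lay upstream, from 19499 to 94799 bp, and 6 of them within the noncoding gene Gm36431. The strongest, 19499 bp upstream, had signals of 101 and 50. Mycn had 9 sites from 2656 to 99676 bp, 7 of them downstream, and the strongest, 35856 bp downstream within 4930519A11Rik, had 112 and 61. E2f2 had 4 sites and E2f1 had 3 in short territories of 26.4 and 17.3 kb. The E2f2 site at chr4:136180076-136180245, with signals of 90 and 76, is distal to the 1 GENCODE TSS used for E2f2. It lies close to a RefSeq TSS of E2f2 at position 136180782, so it may belong to a promoter. Rb1 had 1 site in 68.7 kb, and E2f3, in spite of its strong promoter, had none shared in 135 kb.

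**Figure D4:**
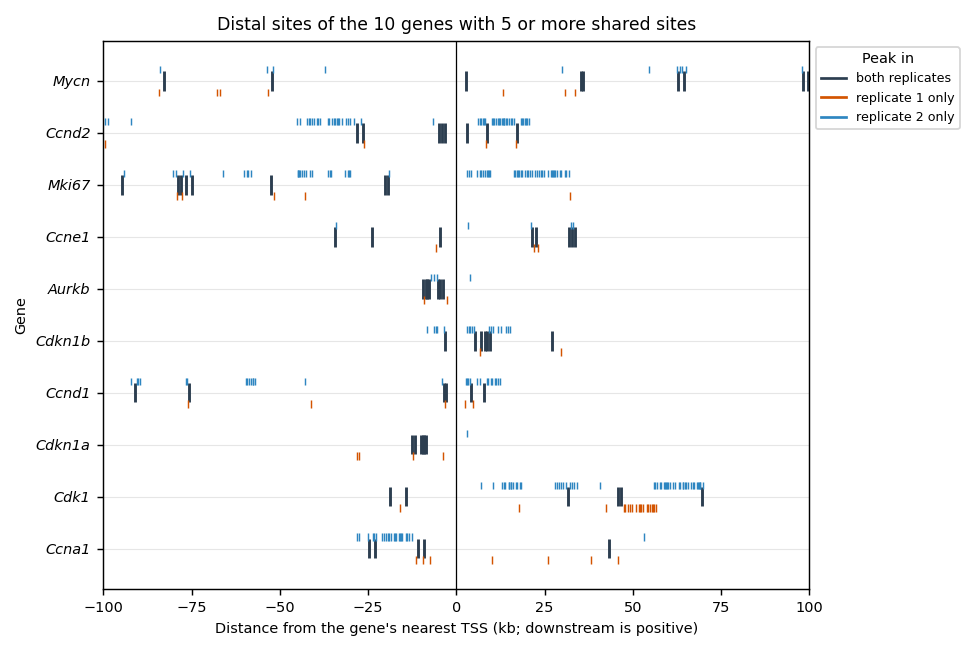
Distal sites of the 10 genes with at least 5 shared sites, placed by their distance in kb from the gene's nearest TSS (x axis, downstream positive), with dark tall bars for sites with a peak of both replicates, orange bars for replicate 1 only and blue bars for replicate 2 only. The Aurkb and Cdkn1a shared sites sit in tight clusters upstream, the Mki67 ones upstream to 94.8 kb, and sites of replicate 2 only form dense runs at Ccnd2, Mki67 and Cdk1.

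The 95 sites lay more often outside protein-coding genes than distal shared sites in general. Such intergenic positions held 71 of the 95 (74.7%, against 49.7% of all), introns 19 (against 43.2%) and exons 5 (5.26% against 7.07%). In the assigned gene itself lay 17 (17.9% against 38.6%), of which 9 belonged to the D-type cyclins. In 150 bp around the site midpoints, SOX letters were found in 24 (25.3%, against 23.4% of all) and proneural E-box letters in 28 (29.5% against 27.1%). The homeodomain word TAATTA and the POU words ATGCAAAT and ATGNATAT were found in 1 site each (1.05%, against 3.04% and 2.64%). For the 33 sites of the D-type cyclins and CDK inhibitors the SOX count was 4 (12.1%), and for the other 62 sites it was 20 (32.3%).

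Most distal sites near the 40 genes were seen in 1 replicate. Besides the 95 shared sites there were 120 of replicate 1 only and 417 of replicate 2 only, so 15.0% of 632 were shared, close to the 14.2% over all genes. The share seen in replicate 2 only was 66.0% for the members and 56.3% over all genes. Mki67 with 69, Ccnd2 with 58, Cdk1 with 54 and Ccnd1 with 29 held 210 of the 417. Sites of replicate 2 only were weak, with a median signal of 8 against 29 for the shared sites in the same replicate. Over all genes these medians were 6 and 23. The members' sites of replicate 1 only were also weaker than shared ones in that replicate, at 20.5 against 50. Of these 120 sites 48 had another such site of the same gene within 2 kb, 17 of 20 at Cdk1, against 61.6% over all genes. Sites of replicate 2 only lay close together: 66 of the 69 at Mki67, 55 of 58 at Ccnd2 and 51 of 54 at Cdk1 had such a neighbour. Over all genes 81.6% of them did. The counts of replicate 2 alone near these genes rest on such runs, and with 2 libraries of unknown depth the replicate and the list length cannot be told apart.

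**Figure D5:**
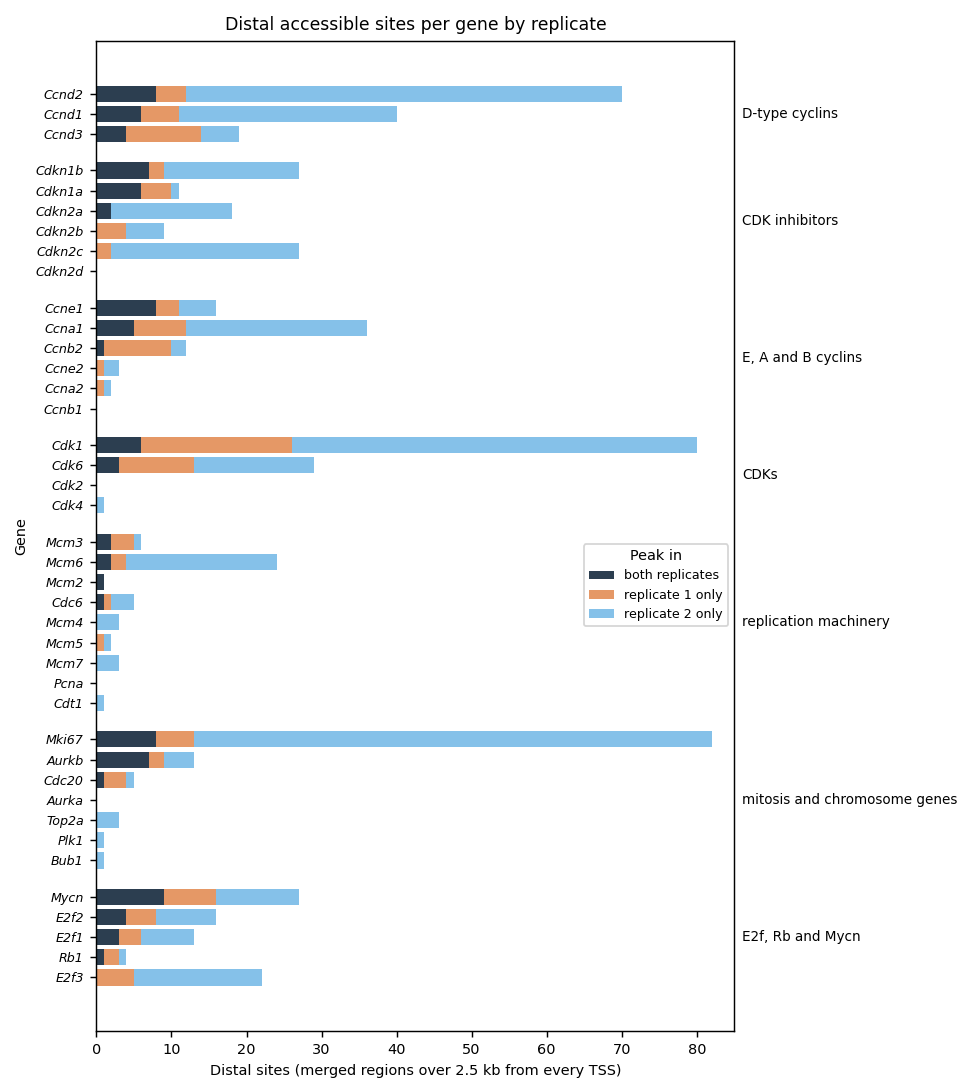
Number of distal sites (x axis) of each of the 40 genes (y axis, by group), split into sites with a peak of both replicates (dark), of replicate 1 only (orange) and of replicate 2 only (blue). Mki67, Cdk1, Ccnd2 and Ccnd1 have the longest bars, of 82, 80, 70 and 40 sites, mostly from replicate 2, and Cdkn2d, Ccnb1, Cdk2, Pcna and Aurka have none.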

How the data were processed

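DNase-seq peaks and hotspots of midbrain at embryonic day 11.5 were taken as the authors deposited them, called in each replicate and not on pooled reads, on mm10 per the labels. The deposited peak signal has no stated normalization and was ranked within a replicate only. The deposited hotspot q-value is on a −log10 scale and the deposited hotspot score was not used. An aligner and a peak caller were not given in the sources used here. Read depth is unknown, so no counting interval is given.

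Peaks on chromosomes 1 to 19 and X were joined to 41249 TSSs of GENCODE vM21 basic protein-coding transcripts with Python 3.11.15, pandas 2.3.3 and pysam 0.24.0. Functions were tested on simulated intervals. Promoter sequences and tRNA genes came from RefSeq. The members, lists and motifs were chosen with earlier results of these data known, and the 12 printed sequences were chosen after their values were seen. Named genes were every D-type cyclin and CDK inhibitor and, in each other group, the genes with the most and fewest distal shared sites and the highest and lowest TSS percentile. Because all 40 members are accounted for, others of them are also given values, and these were chosen after their values were seen. Of 76 other cell cycle genes listed, Cdk3 was not found as protein-coding. No p-values were computed, because the series has 1 group and genes are not replicates. Alternatives were each replicate alone, stronger peaks, hotspots, all transcripts, other TSS windows, overlaps and distances, and other gene groupings.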

Additional observations from a re-analysis of the deposited data

How the results depend on the processing

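The count of 40 genes with an accessible TSS was 40 under every setting tried: each replicate alone, the stronger 50% of peaks, hotspots in place of peaks, all annotated transcripts and TSS windows of 150 and 1000 bp. With 1 replicate left out in turn, the difference between D-type cyclins with CDK inhibitors and the replication machinery ranged from 5.89 to 17.0 distal sites per gene, from -36.3 to -14.1 points of TSS percentile and from 4.25 to 12.1 sites per 100 kb. The members' total likewise ranged from 218 to 515 sites, because a site then needs a peak of 1 replicate. No difference between the groups changed sign under any setting tried. The difference per 100 kb was 0.872 with distal over 5 kb, 1.11 with an overlap of at least 75 bp and 4.04 with the nearest TSS within 50 kb. Leaving out sites over tRNA genes, an alternative added after seeing the data, gave a total of 89. Of 54 counts of single cyclins and inhibitors under settings other than leaving out a replicate, 6 moved by more than 1.5 times: Ccnd1 to 3 and Ccnd2 to 4 with distal over 5 kb, Cdkn1b to 4 with hotspots and to 4 with the 75 bp overlap, and Cdkn2a to 1 and Cdkn2c to 2 with hotspots. The cause of these changes was not tested. Single-gene counts were less stable with 1 replicate left out in turn, when 13 of 18 moved and 5 did not. For Ccnd2 the count of 8 became 13 without replicate 2 and 67 without replicate 1. No paired analysis was possible because the series has 1 group. With 2 libraries of unknown depth, weak sites of a single replicate cannot be told from missed shared sites.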
